A study of Homo sapiens with 15 samples.

Results

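The Sm core proteins are the shared protein ring of the spliceosomal small nuclear ribonucleoproteins (snRNPs), the particles that remove introns from precursor messenger RNA. Their genes were taken as SNRPB, SNRPD1, SNRPD2, SNRPD3, SNRPE, SNRPF, SNRPG and SNRPN, and every intron whose gene name in the deposited intron retention tables includes one of these 8 was counted as a member. This gave 36 introns of 7 genes, of 111143 introns in any table. No intron of SNRPN, a close relative of SNRPB expressed mainly in brain, was among them, and SNRPN is not analysed here. The table of clone KO-1 listed 35 member introns of 90007, and the tables of the other clones listed 36 each, of 100612 (KO-2), 97525 (KO-3) and 101710 (KO-4).

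Polyadenylated RNA had been sequenced from HCT116, an established cell line from a human colon carcinoma. The 15 libraries fall into 5 groups of 3. Of these, 4 are clones labelled deficient in bktRNA1 and numbered KO-1 to KO-4, and the last is the wild-type line (WT), kept in the same medium. Each clone is 1 isolate set against 1 WT line, so clonal differences cannot be told apart from the genotype in any p-value below. What bktRNA1 is beyond its name is not in the labels, and no level of it was analysed here. All 4 comparisons use the same 3 WT libraries. Over the 83066 introns listed for every clone the libraries held 17287797 to 35348260 junction reads, with KO-1 lowest at 17287797 to 20454252. Retained reads made up 12.3% to 13.7%. The epithelial markers EPCAM, KRT8 and KRT18 had spliced reads in every library, and CDH1 and VIL1 are not analysed here. Scaled for library size, EPCAM averaged 4340, 4539, 9935 and 6081 reads in KO-1 to KO-4, against 9017 in WT, and KRT8 averaged 66476, 64345, 92312 and 64943, against 64172 in WT. The part of these differences in the results below was not tested.

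Sm proteins assemble on the U1, U2, U4 and U5 small nuclear RNAs of the major spliceosome and on the U11, U12 and U4atac RNAs of the minor spliceosome. SmE, SmF and SmG form one subcomplex, SmD1 pairs with SmD2, and SmB pairs with SmD3. The arginine methyltransferase PRMT5 and its partners modify some of these proteins, and the SMN complex loads them onto the RNA. The minor spliceosome removes a rare class of introns with a characteristic first stretch of bases and branch site.

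For each intron, retained reads run over an exon-intron boundary and spliced reads run across the intron. The retention level is the share of retained reads after each count is divided by its effective length, the number of read positions that count for it. Changes are given as log2 odds of retention with the standard error (SE), from a quasi-binomial model of the 2 counts per library. Its p-values were adjusted by Benjamini-Hochberg over all introns tested in that clone's table, with a threshold of 0.05. An intron was tested where its retained and its spliced reads each averaged 10 or more. Of the 36 member introns, 18 were tested in at least 1 clone and 15 in all 4. By gene the introns listed and those tested in any clone numbered 9 and 8 for SNRPB, 5 and 3 for SNRPD2, 7 and 4 for SNRPE, 3 and 2 for SNRPF, and 4 and 1 for SNRPG. None of the 4 introns of SNRPD1 and none of the 4 of SNRPD3 passed the minimum.

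SNRPE intron 1 was the member intron that passed the retention test in every clone. The bases at its ends, and at those of a shorter intron nested inside it, are therefore shown. Intron 1 (chr1:203861714-203862195 in GRCh38, plus strand, 482 bases) is the first of the 4 introns of transcript SNRPE-202 and lies between coding exons. The inner intron (chr1:203861744-203862181, 438 bases) is the first intron of transcript SNRPE-205, which is annotated without a coding sequence. Capitals mark the first 8 bases of each intron, and near the other end the stretch of 9 bases closest to the branch site motif. The sequences are those of GENCODE v29 transcripts, in which other annotated exons cover these stretches.
SNRPE intron 1, first 30 bases (chr1:203861714-203861743): GTATCCTAcgcaggatgtcaggactaggag
SNRPE inner intron, first 30 bases (chr1:203861744-203861773): GTTCGGGTcagaatacggggtgcgaaggcg
SNRPE intron 1, last 40 bases (chr1:203862156-203862195): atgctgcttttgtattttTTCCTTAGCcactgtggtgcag
SNRPE inner intron, last 40 bases (chr1:203862142-203862181): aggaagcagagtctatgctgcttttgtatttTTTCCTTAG

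The motifs searched were ATATCCTT and GTATCCTT in the first 8 bases, with at most 1 mismatch, and TTCCTTAAC in the last 40 bases, with at most 2 mismatches, on the strand of the intron only. SNRPE intron 1 matched at both ends with 1 mismatch each. The inner intron matched at neither, with 5 mismatches at its start and 4 near its end. Its last 8 bases are the first 8 of the branch-like stretch of intron 1. Of the 17991 introns with both ends read (16.2% of those listed), 87 (0.484%) held both motifs. The starting motif was found in 273 of 30461 introns whose first bases were read (0.896%), and the branch motif in 2669 of 28935 (9.22%). Among the other member introns only SNRPF intron 2 had both ends read, without a match. Of those read at 1 end, the SNRPD3 intron at chr22:24572062-24581931 matched the starting motif with 1 mismatch, and the SNRPB intron at chr20:2461794-2462635 matched the branch motif with 2 mismatches.

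Each clone retained 1 tested member intron more than WT, SNRPE intron 1, and none less. In KO-1 this was 1 of 15 tested introns, where 1.29% of all introns tested were higher and 0.175% lower. It was 1 of 16 in KO-2 (1.30% higher, 0.304% lower), 1 of 18 in KO-3 (0.558% higher, 0.155% lower) and 1 of 17 in KO-4 (1.54% higher, 0.429% lower). At an unadjusted p under 0.05, 2, 1, 2 and 2 member introns were higher in KO-1 to KO-4, and 1, 0, 2 and 1 were lower. Limma on log2 odds called 0 member introns higher and 0 lower in every clone. The median change of the tested members was 0.24, 0.38, 0.07 and 0.15, against 0.13, 0.10, 0.02 and 0.17 over all introns tested.

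**Figure D1:**
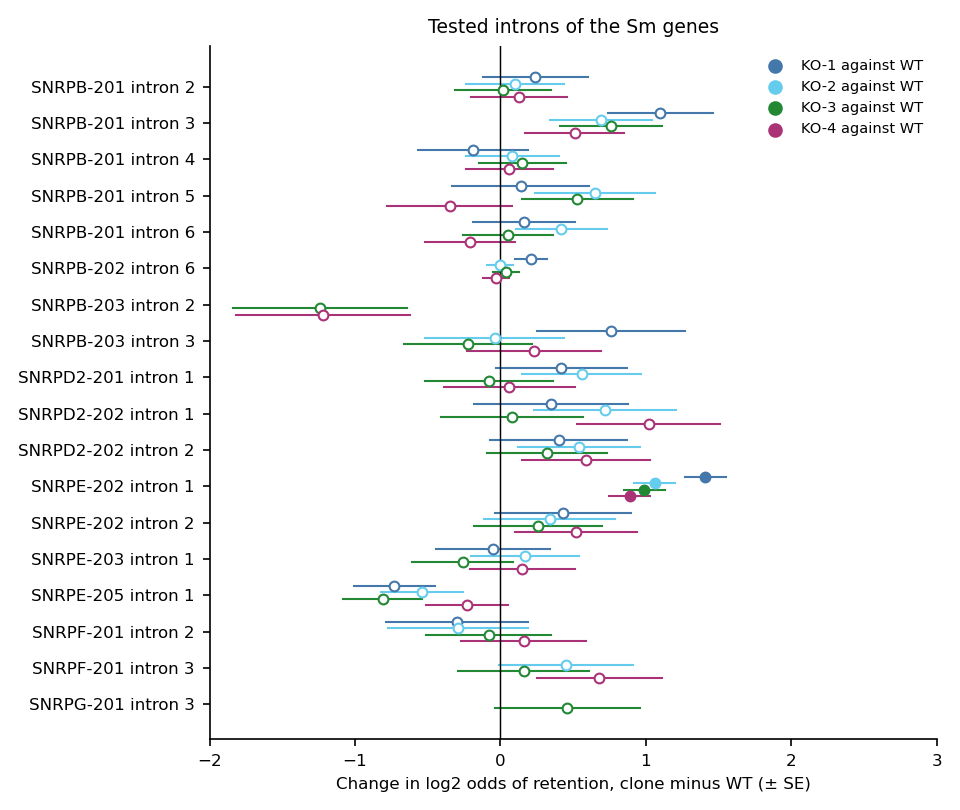
Change in log2 odds of retention, clone minus WT, with its SE, for the 18 member introns tested in at least 1 clone, named by a transcript and intron number. Filled circles passed the adjusted p threshold, and all 4 of them are SNRPE-202 intron 1, at 0.89 to 1.41.

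SNRPE encodes SmE. Its intron 1 was retained at 9.84%, 9.46% and 10.6% in KO-1, 8.80%, 8.16% and 7.04% in KO-2, 6.95%, 9.16% and 6.79% in KO-3, and 6.43%, 7.65% and 7.34% in KO-4, against 4.13%, 3.87% and 3.93% in WT. No clone library was as low as any of WT. The means were 9.96% ± 0.57, 8.0% ± 0.89, 7.63% ± 1.3 and 7.14% ± 0.64 in KO-1 to KO-4 and 3.98% ± 0.14 in WT (SD, n = 3 each). The log2 odds rose by 1.41 (SE 0.14), 1.06 (SE 0.14), 0.99 (SE 0.14) and 0.89 (SE 0.14), with quasi-binomial adjusted p of 4.2e-12, 1.8e-07, 1.7e-06 and 6.4e-06. The authors' deposited table gives false discovery rates of 0, 5.7e-09, 1.6e-07 and 8.8e-06. Limma on log2 odds, which gives every library the same weight whatever its reads, gave changes of 1.41, 1.06, 0.98 and 0.89 but no call, with adjusted p of 0.094, 0.29, 0.45 and 0.31. Leaving out any 1 library of the clone or of WT kept each call, with largest adjusted p of 1.7e-08, 2.5e-05, 0.0011 and 0.0014.

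**Figure D2:**
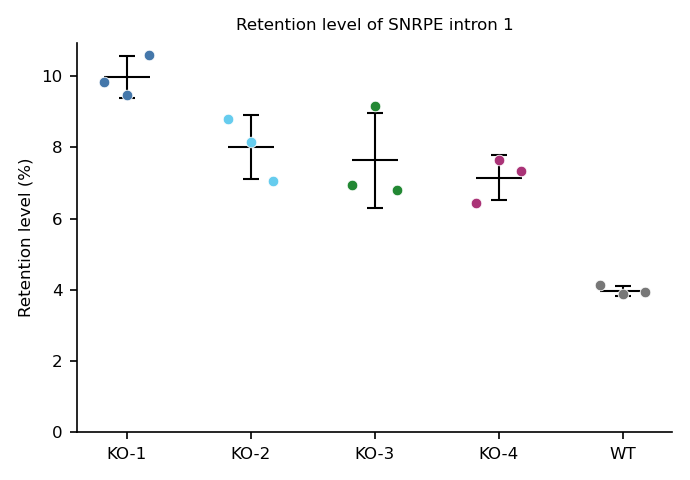
Retention level of SNRPE intron 1 in percent for the 3 libraries of each clone and of WT, with the mean (horizontal line) and SD. The clone libraries sit between 6.43% and 10.6%, all above the WT libraries at 3.87% to 4.13%.

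The size of this rise differed among the clones. In a model over the 12 clone libraries the adjusted p for SNRPE intron 1 was 0.017, and it was the only one of 16 member introns tested to pass, where 6.41% of all introns passed. The call was lost without the KO-1 library listed 1st (adjusted p = 0.078) or 3rd (0.11), without the KO-4 library listed 1st (0.06), and with limma on log2 odds (0.48).

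Molecules spliced at the inner junction keep both boundaries of intron 1. Their reads that run over either boundary can be counted there as retained. The inner junction held 99, 94 and 90 spliced reads in KO-1, 99, 113 and 97 in KO-2, 122, 141 and 94 in KO-3, and 96, 87 and 85 in KO-4, against 59, 70 and 44 in WT. The boundaries of the inner intron held 82, 83 and 53 retained reads in KO-1 and 77, 68 and 76 in WT. They held 99, 99 and 74 in KO-2, 88, 110 and 63 in KO-3, and 92, 120 and 80 in KO-4. Those of intron 1 held 197, 192 and 174 in KO-1 and 146, 151 and 115 in WT. All of these counts are raw and not scaled for library size. The size factors were 0.702, 0.726 and 0.621 in KO-1, 0.939 to 1.266 in the other clones, and 1.04, 1.23 and 1.046 in WT. The counts do not mark which single retained reads of intron 1 come from molecules spliced inside it.

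To describe the region without counting a read as both, the spliced reads of the main junction, those of the inner junction and the boundary reads of the inner intron were scaled by length and set to a sum of 100%. This measure, and the junction use that follows, were chosen after seeing the data. Junctions from inside intron 1 to exon 3 (chr1:203861956-203863662 and chr1:203861744-203863662) were left out of the sum. Molecules spliced at chr1:203861956-203863662 can keep the start boundary of the inner intron, so the unspliced share below may include their reads. The share spliced at the inner junction was 9.49%, 8.91% and 10.6% in KO-1, 7.97%, 7.85% and 6.76% in KO-2, 6.90%, 9.13% and 6.87% in KO-3, and 6.15%, 5.87% and 6.68% in KO-4, against 3.30%, 3.54% and 2.96% in WT. Each clone lay above WT without overlap. The means were 2.96, 2.30, 2.34 and 1.91 times that of WT in KO-1 to KO-4.

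The unspliced share was 3.66% ± 0.47, 3.33% ± 0.71, 2.78% ± 0.68 and 3.38% ± 0.59 in KO-1 to KO-4, against 2.14% ± 0.42 in WT (SD, n = 3 each). The KO-3 libraries overlapped those of WT in this share and the other clones did not. The share spliced at the main junction was 86.7% ± 0.43, 89.1% ± 1.4, 89.6% ± 2.0 and 90.4% ± 0.45 in KO-1 to KO-4, against 94.6% ± 0.13 in WT. With 3 libraries against 3 the exact two-sided permutation test cannot go below p = 0.1, which each non-overlapping share reached. Adjusted over the 40 permutation tests made, this p is 0.167.

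**Figure D3:**
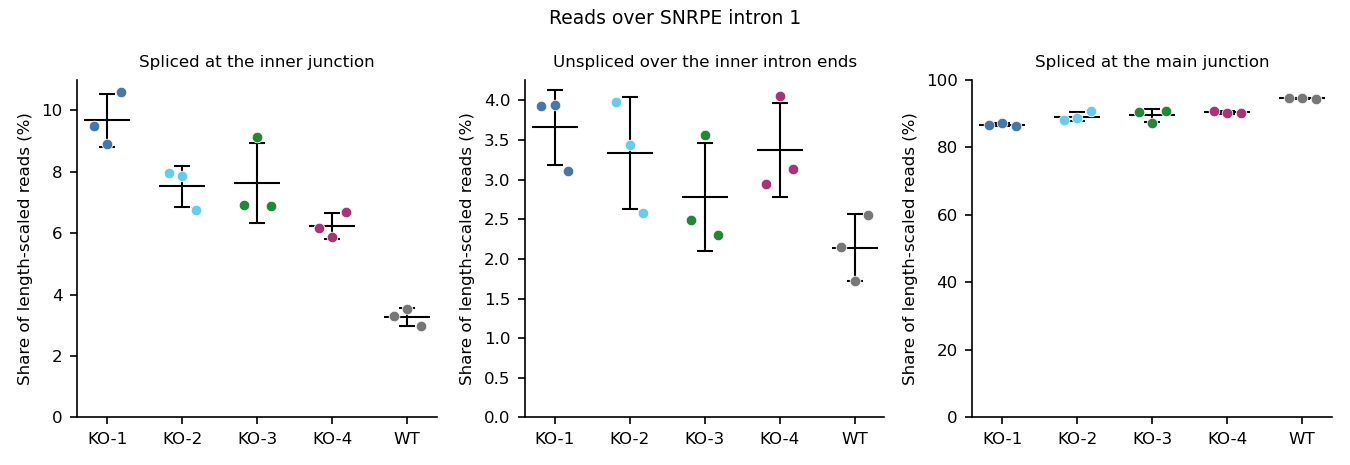
Shares of the length-scaled reads over SNRPE intron 1, in percent, spliced at the inner junction, unspliced over the ends of the inner intron, and spliced at the main junction, for the 3 libraries of each group with mean and SD. The inner-junction share averages 9.66%, 7.53%, 7.64% and 6.23% in KO-1 to KO-4 and 3.27% in WT.

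Junction use was tested as the spliced reads of a junction against those of all junctions of the same gene that overlap it, with the same quasi-binomial model. Use of the inner junction rose by 1.64 (SE 0.17), 1.26 (SE 0.17), 1.27 (SE 0.18) and 0.97 (SE 0.18) in log2 odds in KO-1 to KO-4, with adjusted p of 7.0e-12, 4.0e-07, 1.3e-07 and 5.0e-05. Use of the main junction of intron 1 changed by -1.36, -1.01, -1.05 and -0.78, with adjusted p of 2.4e-10, 3.1e-06, 1.7e-06 and 0.00018. Both junctions enter both ratios, so these are 1 shift seen from either side. The inner junction was the only member junction used more in each clone, of 14, 14, 15 and 15 tested. Over all junctions tested 2.90%, 4.05%, 1.58% and 3.36% were used more in KO-1 to KO-4, and 2.89%, 3.51%, 1.65% and 3.13% less. With limma on log2 odds the rise passed in KO-1 and KO-2 (adjusted p = 0.0090 and 0.046) and not in KO-3 and KO-4 (0.11 and 0.084), and the fall passed only in KO-1 (0.016, against 0.075, 0.17 and 0.11).

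Splicing at the inner junction keeps the first 30 and the last 14 bases of intron 1, shown above, in the RNA. These 44 bases are not a multiple of 3. Placed in the reading frame of SNRPE-202 after its 54 coding bases of exon 1, they bring a stop codon after 26 codons, where SNRPE-202 has 92 codons before its stop. The stop codon starts at base 25 of the added bases. No protein was measured.

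Scaled for library size, the inner junction had 138 ± 8.0, 91.5 ± 13, 114 ± 15 and 78.5 ± 3.3 reads in KO-1 to KO-4, against 51.9 ± 8.5 in WT (SD, n = 3 each). The main junction had 1245 ± 54, 1080 ± 54, 1345 ± 120 and 1140 ± 72, against 1498 ± 140 in WT. The log2 ratio of the group means to WT was -0.27, -0.47, -0.16 and -0.39 at the main junction, and -0.17, -0.41, -0.10 and -0.36 at intron 2.

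The other introns of SNRPE did not pass the retention test. Intron 2 (chr1:203862223-203863662) was retained at 0.570%, 0.424% and 0.459% in KO-1, 0.408%, 0.414% and 0.532% in KO-2, 0.413%, 0.524% and 0.355% in KO-3, and 0.506%, 0.529% and 0.510% in KO-4, against 0.244%, 0.268% and 0.622% in WT. Its WT libraries spanned all of the clone libraries. Introns 3 and 4 (chr1:203863726-203865040 and chr1:203865120-203869876) had at most 7 retained reads in any library and were not tested. Their mean levels were 0.0373% to 0.105% in the clones and 0.0734% in WT for intron 3, and 0.118% to 0.239% in the clones and 0.125% in WT for intron 4.

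The inner intron itself had a retention level of 27.6% ± 4.2, 30.5% ± 2.9, 26.6% ± 1.5 and 35.1% ± 5.0 in KO-1 to KO-4, against 39.5% ± 6.8 in WT. Its log2 odds changed by -0.73, -0.54, -0.81 and -0.23, with adjusted p of 0.25, 0.45, 0.23 and 0.79. A further intron that starts inside intron 1 (chr1:203861956-203863662, SNRPE-203) stood at 36.2% ± 12, 41.7% ± 10, 35.1% ± 6.9 and 40.8% ± 2.9, against 38.9% ± 6.1 in WT, and the groups overlapped. These levels are relative to 29 to 66 spliced reads per library, where intron 2 with the same end had 868 to 2044. The intron from the inner start to exon 3 (chr1:203861744-203863662, SNRPE-204) had at most 11 spliced reads in any library and was not tested. Its mean level was 76.7% to 86.5% in the clones and 89.1% in WT. Set against the mean log2 odds of the 3 other tested SNRPE introns in the same library, intron 1 was higher by 1.57, 1.07, 1.24 and 0.75 in KO-1 to KO-4 than in WT, without overlap. Those 3 include the inner intron, and all but the one at chr1:203862223-203863662 overlap intron 1. Reads spliced at the inner junction count as spliced in the inner intron and can count as retained in intron 1. They can thus widen the difference from both sides.

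SNRPF and SNRPG encode SmF and SmG, the partners of SmE. Intron 2 of SNRPF (chr12:95861294-95865323) was retained at 0.924%, 0.445% and 0.688% in KO-1, 0.568%, 0.582% and 0.921% in KO-2, 1.00%, 0.921% and 0.410% in KO-3, and 0.384%, 1.44% and 0.954% in KO-4, against 1.20%, 0.530% and 0.844% in WT. All 4 clones overlapped WT, with adjusted p of 0.88 to 0.98. Intron 3 of SNRPF averaged 0.704% to 1.04% in the clones and 0.664% in WT, and intron 1 had levels of at most 0.0336% in any group mean. Intron 3 of SNRPG (chr2:70281685-70288067) was tested in KO-3 only, where it stood at 0.475%, 0.349% and 0.627%, against 0.255%, 0.222% and 0.634% in WT, with a change of 0.46 (SE 0.50, adjusted p = 0.90).

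SNRPG has an exon, exon 2 of SNRPG-201, that some transcripts skip. Skipping took 9.22%, 10.9% and 10.9% of the spliced reads in KO-1, 10.2%, 9.25% and 11.9% in KO-2, 11.8%, 12% and 12.5% in KO-3, and 9.94%, 9.99% and 9.24% in KO-4, against 11.3%, 11.4% and 13.2% in WT. KO-1 and KO-4 lay below WT without overlap, at the smallest permutation p the design allows (0.1, adjusted 0.167), and KO-2 and KO-3 overlapped WT. None of its 3 junctions passed the test of junction use.

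SNRPD1 and SNRPD2 encode SmD1 and SmD2. SNRPD1 had 3 introns at or below 0.115% in every group mean and 1 at 99.9% or more. This last one (chr18:21622802-21623874, SNRPD1-203) had at most 3 spliced reads in any library and 901 to 1997 retained reads. The intron with the same start and an end 127 bases earlier (chr18:21622802-21623747) was spliced 925 to 1875 times, with at most 2 retained reads. Reads spliced at the earlier end can run over the end boundary of the later intron and be counted there as retained. An SNRPD2 intron with an end 100 bases from that of the main one (chr19:45688467-45691886) had levels of 99.5% or more in every library, and the last listed SNRPD3 intron (chr22:24572062-24581931) of 97.6% or more.

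In SNRPD2 the tested introns border an extra exon and its skipping. The first intron of SNRPD2-202 (chr19:45689348-45691886) was retained at 20.0%, 17.4% and 20.6% in KO-1, 38.7%, 19.4% and 18.3% in KO-2, 18.8%, 13.5% and 18.8% in KO-3, and 34.7%, 31.9% and 16.9% in KO-4, against 12.7%, 15.9% and 19.0% in WT. Every clone overlapped WT, and the change in KO-4, 1.02 (SE 0.49), had an adjusted p of 0.33. These levels are relative to only 16 to 47 spliced reads per library at this junction. The main intron with the same start (chr19:45688567-45691886) had 2177 to 4645 spliced reads. Its level averaged 0.148% to 0.229% in the clones and 0.157% in WT. The extra exon was included in 1.27% ± 0.33, 1.14% ± 0.37, 1.24% ± 0.29 and 1.07% ± 0.30 of spliced reads in KO-1 to KO-4, against 1.27% ± 0.075 in WT.

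SNRPB encodes SmB and, by choice of the acceptor of its last intron, SmB′. The nearer acceptor (chr20:2461940-2462635), 146 bases upstream of the farther one (chr20:2461794-2462635), took 66.2%, 64.0% and 65.3% of the spliced reads of both in KO-1, against 58.6%, 60.1% and 62.5% in WT. KO-1 lay above WT without overlap. The shares in KO-2, KO-3 and KO-4 averaged 60% ± 1.6, 60.2% ± 1.3 and 60.3% ± 0.69, against 60.4% ± 1.9 in WT, and overlapped it. Use of the farther acceptor fell by 0.30 (SE 0.10) in log2 odds in KO-1, with an quasi-binomial adjusted p of 0.048, and the same reads seen from the nearer one had an adjusted p of 0.051. The call did not hold when any 1 KO-1 library, or the 1st or 2nd listed of WT, was left out, with limma, with no filter or with a minimum of 50 reads. Without the WT library listed 3rd the fall was 0.35 (adjusted p = 0.012). With this junction, KO-1 had 2 member junctions used less, and the other clones had 1 each.

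**Figure D4:**
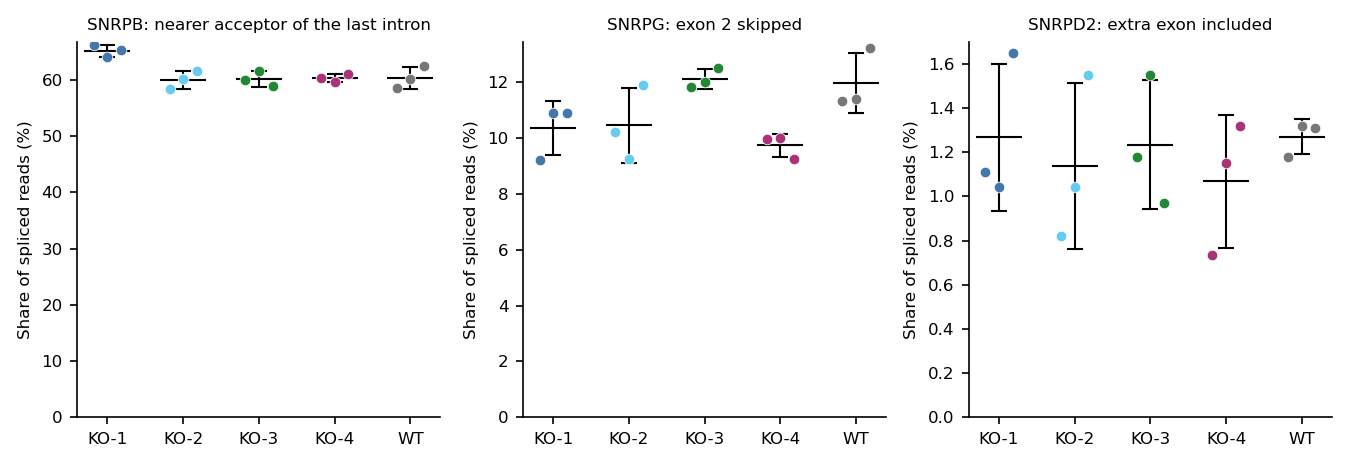
Share of spliced reads in percent for the nearer acceptor of the last SNRPB intron, skipping of SNRPG exon 2 and inclusion of the extra SNRPD2 exon, in the 3 libraries of each group with mean and SD. The SNRPB share is 64.0% to 66.2% in KO-1, above the 58.6% to 62.5% of WT.

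No SNRPB intron passed the retention test. The farther last intron had a level of 38.4%, 35.5% and 34.6% in KO-1, against 31.5%, 33.2% and 34.4% in WT, with a change of 0.21 (SE 0.11, adjusted p = 0.50), and the other clones averaged 32.6% to 33.6%. Reads spliced at the nearer acceptor can run over the end boundary of the farther intron and be counted there as retained. The intron that ends at the nearer acceptor averaged 1.13% to 1.74% in the clones and 1.31% in WT. Intron 3 (chr20:2463900-2465707) was retained at 0.540%, 0.513% and 0.914% in KO-1 and 0.474%, 0.474% and 0.494% in KO-2, against 0.252%, 0.297% and 0.347% in WT. KO-3 and KO-4 overlapped WT there. The changes were 1.10, 0.69, 0.76 and 0.51, with adjusted p of 0.12, 0.43, 0.51 and 0.54. Without the WT library listed 3rd the KO-1 change was 1.21, with an adjusted p of 0.045. The intron with the highest WT level was that before the cassette exon of SNRPB-203 (chr20:2467316-2467606), whose reads are shared with the gene AL049650.1. It was not listed for KO-1 and not tested in KO-2. Its level was 33.3%, 44.2% and 37.0% in KO-3 and 40%, 40.5% and 34.6% in KO-4, against 55.6%, 50% and 71.4% in WT. Both clones lay below WT, with changes of -1.24 (SE 0.60) and -1.22 (SE 0.60) and adjusted p of 0.57 and 0.34, on 6 to 30 reads of each kind per library. The main intron with the same start (chr20:2465820-2467606) had 2684 to 3730 spliced reads in WT, and a mean level of 0.378%. SNRPB-203 is annotated as a target of nonsense-mediated decay, and its cassette exon was included in 0.693% to 0.944% of reads in the clones and 0.808% in WT.

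For 9471 genes the spliced reads of all introns were summed, scaled by median ratios and tested with limma over the 15 libraries together. They stand in for the level of spliced transcript and miss RNA that keeps all its introns. Reads from processed copies of a gene, which lack introns, could be placed on its junctions, and no source used here says how they were treated. The sums of SNRPD3 include introns that also carry the name GGT1.

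**Figure D5:**
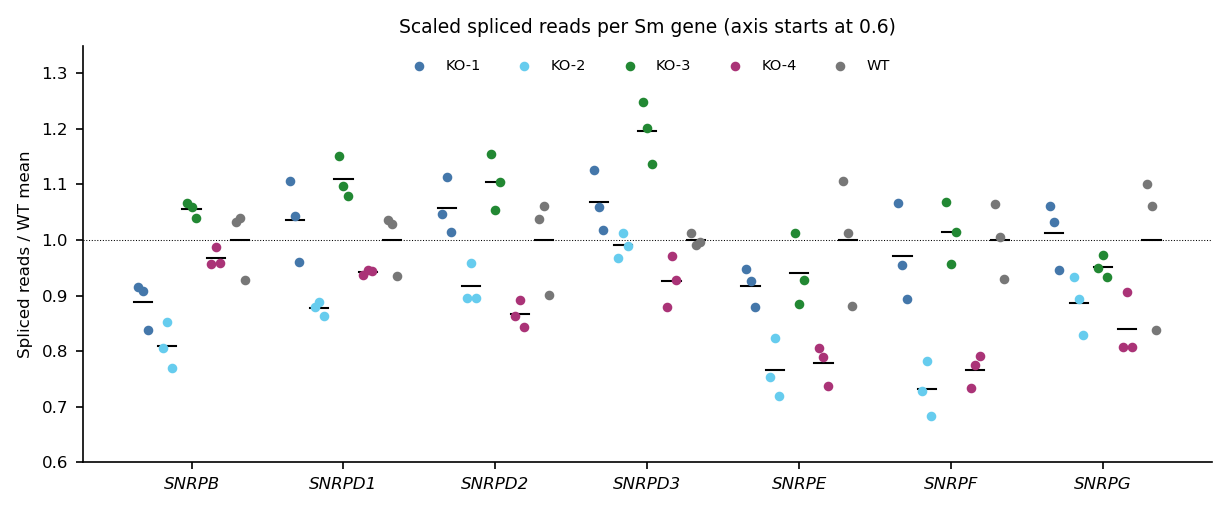
Scaled spliced reads of the 7 Sm genes in each library of the clones and of WT, divided by the WT mean, with bars at the group means and an axis that starts at 0.6. SNRPE and SNRPF are lowest in KO-2 and KO-4, and SNRPD3 is highest in KO-3.

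KO-2 and KO-4 each had 4 of 7 Sm genes lower and 0 higher, where 21.1% and 24.2% of all genes were lower and 21.9% and 24.6% higher. In KO-1, 1 was lower and 0 higher (12.5% and 13.7% of all genes), and in KO-3, 0 were lower and 2 higher (15.6% and 15%). The median change of the 7 was 0.03, -0.19, 0.08 and -0.20 in KO-1 to KO-4, against 0.00 over all genes in each.

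SNRPE had 5273, 5157 and 4896 scaled reads in KO-1, 4199, 4583 and 4005 in KO-2, 5631, 4926 and 5163 in KO-3, and 4486, 4398 and 4104 in KO-4, against 6155, 5638 and 4903 in WT. It fell by 0.38 (log2, SE 0.07, limma adjusted p = 0.00012) in KO-2 and by 0.36 (SE 0.07, adjusted p = 0.00020) in KO-4, both without overlap with WT. In KO-1 and KO-3 the changes were -0.12 and -0.08, with adjusted p of 0.23 and 0.39, and without the WT library listed 3rd that of KO-1 was -0.21 (adjusted p = 0.028). These sums include the reads of the inner junction. Intron 1 retention was highest in KO-1, and its relation to the sums was not tested.

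SNRPF had 1991, 2134 and 1867 scaled reads in KO-2 and 2004, 2114 and 2160 in KO-4, against 2906, 2745 and 2539 in WT. It fell by 0.45 (limma adjusted p = 1.4e-05) in KO-2 and by 0.38 (adjusted p = 8.1e-05) in KO-4, and its changes in KO-1 and KO-3 were -0.04 and 0.02. SNRPG fell by 0.24 (SE 0.08, adjusted p = 0.012) in KO-4, with 3102, 3481 and 3103 reads against 4225, 4076 and 3219 in WT, which overlap. That call was lost when the KO-4 library listed 1st or 3rd, or that of WT listed 1st or 2nd, was left out (adjusted p of 0.050 to 0.094). Without the WT library listed 3rd SNRPG also passed as lower in KO-2 (-0.29, adjusted p = 0.0011) and in KO-3 (-0.18, adjusted p = 0.044), where it had not passed with all libraries (-0.17 and -0.06).

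SNRPD1 fell by 0.19 (SE 0.05, limma adjusted p = 0.0067) in KO-2, with 3972, 4009 and 3900 reads, and rose by 0.15 (SE 0.05, adjusted p = 0.035) in KO-3, with 5200, 4957 and 4878, against 4677, 4645 and 4225 in WT. The rise in KO-3 was lost without the KO-3 library listed 1st or 2nd (adjusted p = 0.13 and 0.057), without the WT library listed 3rd (0.18), and with the introns listed for that clone alone (0.062). SNRPD2 fell by 0.20 (SE 0.06, adjusted p = 0.0055) in KO-4, with 5702, 5897 and 5577 reads against 6855, 7012 and 5958 in WT. Without the WT library listed 3rd it also passed as lower in KO-2 (-0.20, adjusted p = 0.0067, against -0.12 with all libraries). In KO-3 it stood at 0.15 (adjusted p = 0.058) and passed as higher without the KO-3 library listed 2nd (0.18) or the WT library listed 1st (0.17) or 2nd (0.19).

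SNRPB fell by 0.17 (SE 0.05, limma adjusted p = 0.016) in KO-1 and by 0.30 (SE 0.05, adjusted p = 4.3e-05) in KO-2. It had 14249, 14140 and 13049 reads in KO-1 and 12525, 13256 and 11975 in KO-2, against 16063, 16176 and 14425 in WT. The KO-1 call was lost without the KO-1 library listed 3rd (adjusted p = 0.094) and when that of WT listed 1st (0.062) or 2nd (0.081) was left out. SNRPD3, for the partner of SmB, rose by 0.26 (SE 0.05, adjusted p = 0.00075) in KO-3, with 4891, 4711 and 4458 reads against 3970, 3882 and 3908 in WT. In KO-4 it stood at -0.11 (adjusted p = 0.080) and passed as lower without the KO-4 library listed 2nd (-0.15, adjusted p = 0.047).

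A list of 22 genes of Sm ring assembly and snRNP maturation was set beside the members, of which 20 were tested for spliced reads. The genes lower numbered 8, 9, 3 and 13 in KO-1 to KO-4 and those higher 0, 1, 1 and 0, against the shares over all genes given above. Their median changes were -0.09, -0.17, -0.04 and -0.28. RIOK1, a kinase that binds PRMT5, fell in all 4 clones, by 0.17, 0.16, 0.17 and 0.29, with limma adjusted p of 0.035, 0.033, 0.035 and 0.00028. It had 2007, 1918 and 1757 reads in KO-1, 1826, 1971 and 1925 in KO-2, 1913, 1888 and 1888 in KO-3, and 1686, 1707 and 1822 in KO-4, against 2224, 2109 and 2056 in WT.

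The genes that fell in KO-1, KO-2 and KO-4 were GEMIN2, GEMIN5 and GEMIN6 of the SMN complex, the cap-binding protein gene NCBP1 and TGS1, which hypermethylates the cap of small nuclear RNAs. TGS1 had 330, 295 and 279 reads in KO-1, against 605, 548 and 537 in WT, a fall of 0.90 (SE 0.10, limma adjusted p = 2.6e-07), and fell by 0.27 in KO-2 and KO-4. GEMIN5, which recognises the small nuclear RNAs, had 842, 880 and 1029 reads in KO-4, against 2227, 2600 and 2457 in WT, a fall of 1.41 (SE 0.09, adjusted p = 1.3e-11). It fell by 0.26 in KO-1, where the libraries overlapped WT, and by 0.27 in KO-2. GEMIN2 fell by 0.26, 0.31 and 0.38 in KO-1, KO-2 and KO-4, GEMIN6 by 0.31, 0.30 and 0.53, and NCBP1 by 0.19, 0.22 and 0.33. SMN1 and SMN2 are near-identical copies, so their reads may be split between them and their values are uncertain.

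In retention the assembly list had 33, 45, 44 and 47 tested introns in KO-1 to KO-4. None was called lower in any clone, and 1 was called higher, an intron of WDR77 (chr1:111441390-111442024) in KO-3. Over all introns tested, 1.29%, 1.30%, 0.558% and 1.54% were higher in KO-1 to KO-4, and 0.175%, 0.304%, 0.155% and 0.429% lower. WDR77 encodes the partner of PRMT5. Its intron stood at 11.1%, 13% and 9.37% in KO-3, against 8.82%, 3.86% and 4.21% in WT, a change of 1.17 (SE 0.29, quasi-binomial adjusted p = 0.028), and it was named after its value was seen.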

How the data were processed

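Junction reads were counted by the authors for 3 libraries of each clone and 3 of WT, from independent experiments per the labels. Cutadapt 2.0 and STAR 2.7.1a on hg38 are named in the submitters' processing notes. The counting tool and its test are not named in these sources. Deposited tables hold, per the file headers, raw counts of retained and spliced junction reads as lists of 3 libraries, effective lengths, levels as fractions, the authors' p-value and false discovery rate, and a difference of levels, treated here as a score. A library is named by its place in these lists, which show no replicate number.

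Levels were recomputed from counts and lengths and matched the deposited fractions within 0.0005. Retention and junction use were fitted over each whole table with a quasi-binomial model, its dispersion moderated with limma 3.58.1 in R 4.3.3 and floored at 1, with an F test and Benjamini-Hochberg adjustment. Spliced reads per gene, averaging 50 or more, were tested with limma (trend). The plan named a quasi-likelihood count test for these sums, which was not run, and limma was used in its place. In simulated data the retention model recovered a smaller part of 2-fold than of 4-fold changes in odds. Any working test gives this order, so it does not bear on the calls above. The simulation gave every intron the same extra spread between libraries. Intron ends were read from GENCODE v29 transcripts where exons cover them.

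Named in full were member introns past the threshold in any clone, all introns of SNRPE, and the tested intron with the highest WT level of each other gene. Spliced reads were given for all 7 genes with listed introns, by their called values. Of the assembly list, those that passed in 1 direction in 3 or more clones were named. Other introns given in full, such as SNRPB intron 3, were chosen after their values were seen. The members, lists and measures were chosen with earlier results of these data known. Alternatives were another model, other filters, centring, another threshold and leaving out each library.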

Additional observations from a re-analysis of the deposited data

Results flagged for a closer look

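Retention of SNRPE intron 1 differed among the 4 clones in a test over their 12 libraries, with a quasi-binomial adjusted p of 0.017. It was 1 of 16 member introns tested, where 6.41% of all introns tested passed. As given above, the call was lost when certain single libraries of KO-1 or KO-4 were left out, and with limma on log2 odds. The mean levels were 9.96%, 8.0%, 7.63% and 7.14% in KO-1 to KO-4, against 3.98% in WT. KO-1 also had the fewest junction reads, 17287797 to 20454252 per library, against 27092050 to 35348260 in the other clones. The part of depth in the difference was not tested, and neither was that of reads spliced at the inner junction.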

How the results depend on the processing

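With limma on log2 odds, 0 member introns were retained more in any of the 4 clones, and 0 differed among the clones. With the same model 0 junctions were used more in KO-3 or KO-4, and those used less numbered 1 in KO-1 and 0 in each of the others. Those used less in KO-1 also numbered 1 with a threshold of 0.01, with no filter and with a minimum of 50 reads. Leaving out 1 library gave 1 to 2 introns retained more, 1 to 2 junctions used more and 1 to 2 used less in KO-1, and 0 to 1 introns that differed among the clones. It gave 0 to 2 genes lower in KO-1, 1 to 3 higher in KO-3 and 0 to 1 lower in KO-3. With the introns listed for that clone alone, 1 gene was higher in KO-3. With the boundary reads of intron 1 in place of those of the inner intron, the unspliced share of SNRPE exceeded that of WT by 5.20, 3.57, 3.21 and 2.86 points in KO-1 to KO-4, against 1.52, 1.19, 0.643 and 1.24. The boundary reads of intron 1 can include reads spliced at the inner junction, and those of the inner intron do not. The part of such reads in this gap was not tested, and neither were the causes of the other changes. Of the counts and differences recomputed, 389 stayed within 1.5 times the reported count or within the spread between libraries and 36 did not. Among single genes and introns 20 values lost their call and 8 gained one, and no called value changed sign. The minimum of 10 reads of each kind limits the test, since 18 of 36 member introns had too few retained or too few spliced reads in every clone. Of the member introns listed, 22 had a mean WT level below 1% and 3 had one above 95%. The planned count models were not run. No paired analysis was possible because the lists in the tables carry no replicate numbers.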
